A study of Homo sapiens with 6 samples.

Results

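The keratin genes were compared between PC9/gef and PC9 cells. They were taken as all genes whose symbol is KRT followed by digits only and which had at least 1 probe set annotated to them alone, so that keratin-associated protein genes and pseudogenes were left out. This gave 42 genes, read by 54 probe sets, out of 19775 genes and 54613 probe sets. PC9/gef is a gefitinib-resistant line derived from PC9 by growth under rising concentrations of gefitinib, an inhibitor of the EGF receptor kinase. PC9 is the parental, gefitinib-sensitive lung adenocarcinoma line. Both were grown in RPMI-1640 with serum, and RNA of 3 samples of each line was hybridized to Affymetrix arrays, 1 array per sample. PC9/gef is a single selected line. The labels call the samples biological replicates, but nothing says that they came from separate cultures, so the p-values measure only the spread between these samples.

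Keratins form the intermediate filaments of epithelial cells, and each filament is assembled from pairs of a type I and a type II keratin. The pairs follow the epithelium: KRT8 with KRT18 in simple epithelia, where KRT7 and KRT19 are also used, KRT5 with KRT14 in the basal layer of stratified epithelia, KRT4 with KRT13 above that layer in mucosa, KRT1 with KRT10 in the upper epidermis, and further genes in hair and its follicle. Pathologists read keratins as lineage markers, and KRT7 is a usual marker of lung adenocarcinoma.

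The deposited values are on the log2 scale, so that a difference of 1 is a 2-fold change. The arrays had the same distribution, with a median of 2.55 and a maximum of 15.72. Background level was set from 107 probe sets of olfactory receptor genes, as the 95th percentile of their mean values, which was 2.61. On each array, 53% of the values did not exceed it. A gene was read from its probe set with the highest mean. It was called changed at an adjusted p under 0.05 (limma, Benjamini-Hochberg over all genes) with a mean above background level in at least 1 line. Correlations between arrays were at least 0.9992 within a line and at most 0.9944 between the lines. All 6 epithelial markers, of which 4 are keratins, were above background level, including EPCAM, at 14.45 in PC9/gef and 14.46 in PC9. The lung markers NKX2-1, NAPSA and SFTPC were at background level in both lines, whereas SFTPB and MUC1 were above it. All 3 leukocyte and all 3 endothelial markers measured were at background level, as were the fibroblast markers COL1A2, DCN, LUM and PDGFRB. COL1A1, the fifth fibroblast marker, was at 8.46 in PC9/gef and 7.94 in PC9 (adjusted p = 0.0390). The log2 values of the fibroblast markers summed to 18.1 to 18.2 on the PC9/gef arrays and 17.5 to 17.9 on the PC9 arrays. That gap came almost wholly from COL1A1 (log2 change 0.52), since the other fibroblast markers were at background level. The part of these markers in the keratin values was not tested.

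Of the 42 keratin genes, 14 were above background level in at least 1 line. KRT80, KRT7 and KRT10 were higher in PC9/gef than in PC9, by 1.13- to 1.28-fold. KRT13, KRT23, KRT5, KRT14, KRT16, KRT8, KRT15 and KRT18 were lower, and KRT78, KRT40 and KRT19 did not pass the test. Thus 3 of 14 (21.4%) were higher and 8 of 14 (57.1%) were lower, beside 22.8% higher and 21.4% lower among the 12185 genes above background level, of which 44.2% were called in either direction. The median log2 change was -0.25 for the 14 keratin genes and -0.0090 for all genes above background level. The arrays of the lines did not overlap for 13 of the 14 keratin genes, beside 65.1% of all genes above background level. Over 2-fold lower were 4 keratin genes, beside 2.17% of all genes, and over 2-fold higher were 0, beside 2.5%. Since KRT23 was above background level in PC9 alone, it entered this count only through the line in which it was high. In RNA from whole cultures, fewer cells with a transcript and less of it per cell cannot be told apart.

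**Figure D1:**
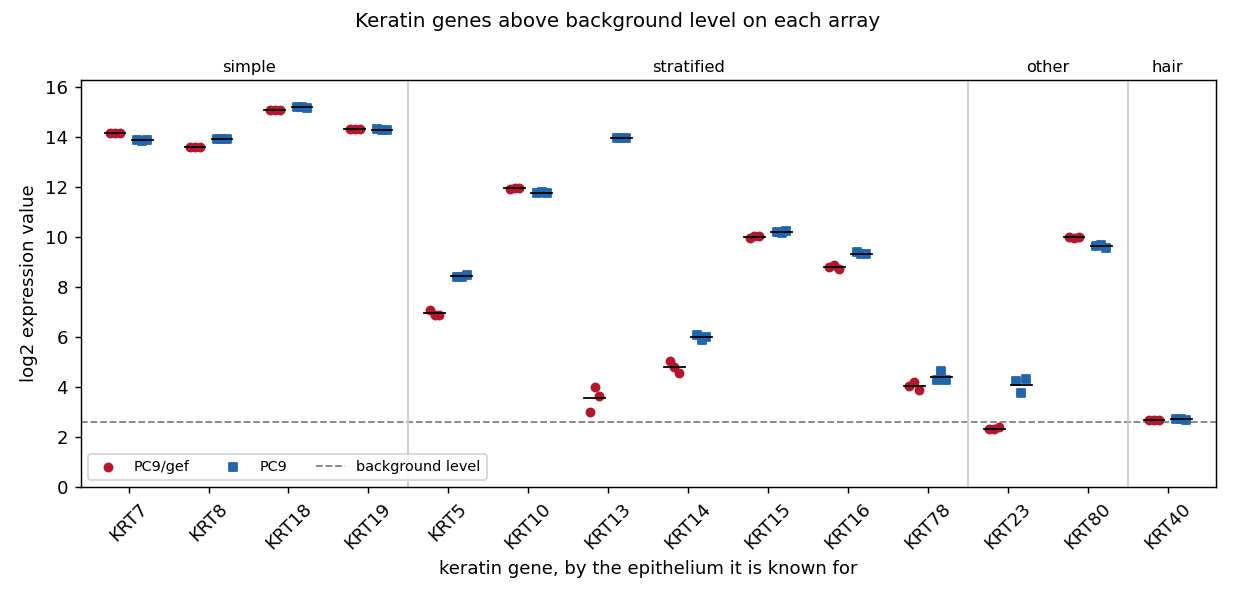
Log2 expression value (y axis) of the 14 keratin genes above background level (x axis, by epithelium) on each PC9/gef array (circles) and each PC9 array (squares), with the mean of each line (bars) and the background level of 2.61 (dashed). KRT13 lies between 3.01 and 3.99 on the PC9/gef arrays and between 13.98 and 13.99 on the PC9 arrays, while the 4 simple-epithelial genes shown stay above 13 in both lines.

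Among the keratins of stratified epithelia, the suprabasal mucosal keratin KRT13 had the largest difference. Its log2 values were 3.01, 3.99 and 3.65 on the PC9/gef arrays, against 13.99, 13.98 and 13.98 on the PC9 arrays. The PC9 arrays were all close to the top of the scale, and the PC9/gef arrays were low but still above background level, with a wider spread. The means were 3.55 ± 0.50 in PC9/gef and 13.98 ± 0.0060 in PC9 (SD, n = 3 each), which is a log2 change of -10.43 (SE 0.27, adjusted p = 0.000108), or 1383-fold lower (95% confidence interval 833- to 2296-fold). It was rank 1 of 12185 genes by size of fall. KRT4, the type II keratin that pairs with KRT13 in mucosa, was at background level in both lines. KRT13 was read by 1 probe set, so no other probe set bears on it. That probe set is named _s_at and may also bind transcripts of related genes. The fold and its interval rest on low PC9/gef values, where signals are compressed, so the size of the fall is approximate. The fit pools the spread of both lines, although that of PC9/gef was far wider, so the interval may be too narrow.

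The basal pair was lower on both sides. KRT5, the type II partner, had log2 values of 7.08, 6.88 and 6.89 on the PC9/gef arrays, against 8.43, 8.41 and 8.48 on the PC9 arrays. The lines were well apart and each was tight. The log2 change was -1.49 (SE 0.066, adjusted p = 0.000337), 2.80-fold lower. KRT14, its type I partner, had log2 values of 5.05, 4.81 and 4.57 on the PC9/gef arrays, against 6.09, 5.90 and 6.02 on the PC9 arrays. Again no PC9/gef array reached the lowest PC9 array. The log2 change of KRT14 was -1.20 (SE 0.14, adjusted p = 0.00496), 2.29-fold lower, and it no longer passed when tested against a minimum change of 1.5-fold (adjusted p = 0.143). Of the other squamous or basal markers measured, DSG3, a cadherin of the desmosome, and the transcription factor SOX2 were at background level in both lines. The paper reports higher SOX2 in PC9/gef by RT-qPCR, so background level here does not mean that it was absent.

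KRT16, a type I keratin induced in wounded and hyperproliferative epidermis, had log2 values of 8.79, 8.90 and 8.72 on the PC9/gef arrays, against 9.40, 9.31 and 9.31 on the PC9 arrays. It was lower without overlap, by 1.45-fold (log2 change -0.54, SE 0.057, adjusted p = 0.00356). KRT15, a type I keratin of basal cells and of the stem cell region of the hair follicle, had log2 values of 9.98, 10.04 and 10.06 on the PC9/gef arrays, against 10.23, 10.15 and 10.25 on the PC9 arrays. The arrays were apart by less than for KRT16, and the fall was 1.13-fold (log2 change -0.18, SE 0.038, adjusted p = 0.0286). The call for KRT15 was lost without PC9 replicate 1 (adjusted p = 0.0999), PC9 replicate 3 (0.0860), PC9/gef replicate 1 (0.0782), PC9/gef replicate 2 (0.0664) or PC9/gef replicate 3 (0.0584).

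KRT10, the type I keratin of differentiating epidermis, went the other way. It had log2 values of 11.92, 11.98 and 11.98 on the PC9/gef arrays, against 11.78, 11.81 and 11.77 on the PC9 arrays. Every PC9/gef array was above every PC9 array, by a small margin. The log2 change was 0.17 (SE 0.024, adjusted p = 0.00815), 1.13-fold higher. All 3 probe sets of KRT10 were higher, with log2 changes of 0.17, 0.22 and 0.26 (adjusted p = 0.0141, 0.0114 and 0.00332 over all probe sets). KRT1, its type II partner in epidermis, was at background level in both lines. KRT78, a type II keratin of stratified epithelia, had log2 values of 4.03, 4.19 and 3.89 on the PC9/gef arrays, against 4.27, 4.65 and 4.27 on the PC9 arrays. The lines did not overlap but the difference did not pass (log2 change -0.36, 95% confidence interval -0.76 to 0.034, adjusted p = 0.142). In all, 7 of 16 stratified-epithelial keratins were above background level, of which 1 was higher, 5 were lower and 1 did not pass, beside 22.8% higher and 21.4% lower among all genes above background level. Their median log2 change was -0.54.

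Promoter sequence from RefSeq (GRCh38.p14) was at hand for KRT5, KRT8, KRT10 and KRT40 among the 14 genes. The 250 bases before the start are printed for KRT5, the gene among these with the largest fall, and for KRT10, the only one of them that rose, so that they can be read side by side. Both are on the minus strand, KRT5 at chr12:52520395-52520644 and KRT10 at chr17:40822615-40822864, and capitals mark matches to the motifs searched.
KRT5: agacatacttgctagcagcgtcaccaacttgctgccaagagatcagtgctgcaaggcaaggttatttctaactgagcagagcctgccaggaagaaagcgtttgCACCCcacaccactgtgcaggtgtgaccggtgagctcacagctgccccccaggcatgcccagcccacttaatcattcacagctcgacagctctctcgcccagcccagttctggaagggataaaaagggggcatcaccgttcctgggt
KRT10: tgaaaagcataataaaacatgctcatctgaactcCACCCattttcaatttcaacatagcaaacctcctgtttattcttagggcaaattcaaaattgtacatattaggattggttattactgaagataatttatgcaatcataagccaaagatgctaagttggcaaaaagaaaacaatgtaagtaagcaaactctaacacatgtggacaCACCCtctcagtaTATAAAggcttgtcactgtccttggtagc
The motifs were TATAAA for the TATA box, searched on the gene strand only, and TGANTCA for AP-1, GCCNNNGGC for AP-2, CACCC for KLF factors and GGGCGG for Sp1, searched on both strands. The KRT5 window held 1 match to CACCC, and the KRT10 window held 2 to CACCC and 1 to TATAAA. Over 35116 promoters of this length, CACCC was found in 54.7%, TATAAA in 6.8%, TGANTCA in 6.57%, GCCNNNGGC in 19.8% and GGGCGG in 42.6%. A match is a run of letters and not a measured binding site.

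Of 5 keratins of simple epithelia, 4 were above background level in both lines, and each of these differed by less than 1.5-fold. So did most genes above background level, whose median absolute log2 change was 0.18. By size of change among those genes, KRT8 was at percentile 69.8, KRT7 at 65.8, KRT18 at 34.7 and KRT19 at 13.0. KRT8, the type II member of the main simple-epithelial pair, had log2 values of 13.60, 13.63 and 13.60 on the PC9/gef arrays, against 13.95, 13.92 and 13.94 on the PC9 arrays. The replicates were very close and the lines apart. KRT8 was 1.25-fold lower (log2 change -0.33, SE 0.013, adjusted p = 0.000255). KRT18, its type I partner, had log2 values of 15.09, 15.11 and 15.08 on the PC9/gef arrays, against 15.20, 15.20 and 15.19 on the PC9 arrays. It was also lower on every PC9/gef array, by 1.07-fold (log2 change -0.10, SE 0.0097, adjusted p = 0.00239), with values near the array maximum of 15.72.

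KRT7, the type II keratin of glandular epithelia, had log2 values of 14.19, 14.18 and 14.16 on the PC9/gef arrays, against 13.89, 13.85 and 13.91 on the PC9 arrays. It was higher on all PC9/gef arrays, by 1.22-fold (log2 change 0.29, SE 0.020, adjusted p = 0.00104). Of its other probe sets, 1 was just above background level, with means of 3.07 in PC9/gef and 2.87 in PC9 (adjusted p = 0.225), and 2 were at background level. KRT19, the type I keratin without a tail domain, had log2 values of 14.35, 14.35 and 14.34 on the PC9/gef arrays, against 14.35, 14.30 and 14.29 on the PC9 arrays. The arrays of the lines overlapped, and the difference did not pass (log2 change 0.031, 95% confidence interval -0.019 to 0.082, adjusted p = 0.286), though it did without PC9 replicate 1 (log2 change 0.050, adjusted p = 0.0150). KRT20, a keratin of intestinal epithelium, was at background level in both lines. The median log2 change of the 4 simple-epithelial genes above background level was -0.036.

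**Figure D2:**
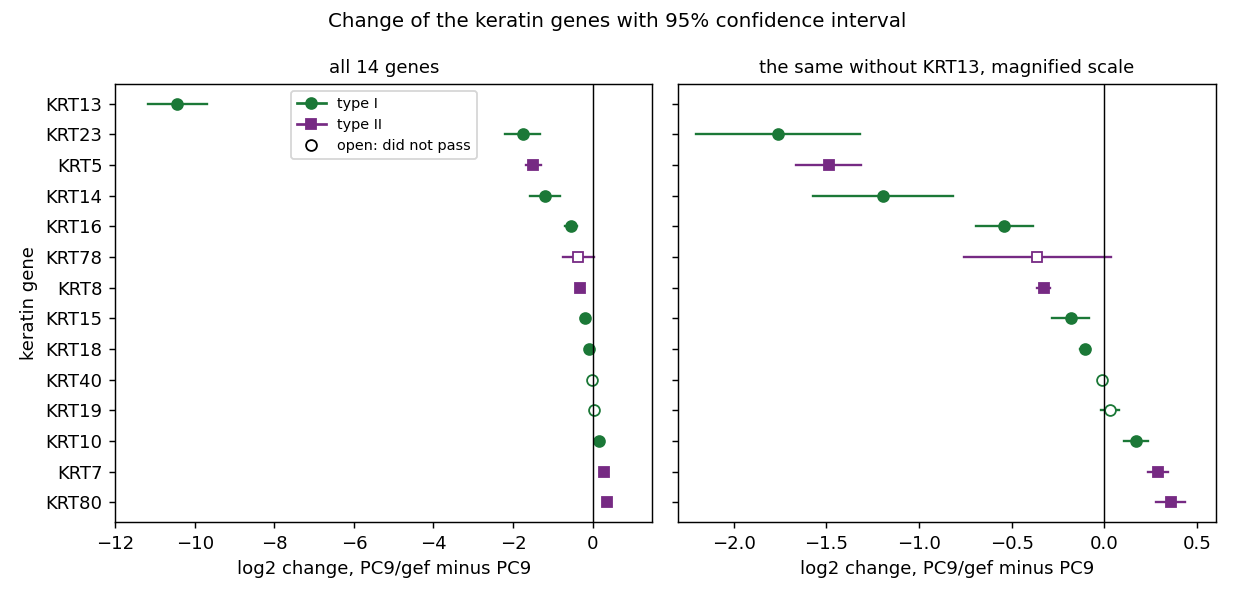
Log2 change in PC9/gef minus PC9 (x axis) of the 14 keratin genes (y axis) with 95% confidence intervals (lines), for type I (circles) and type II genes (squares), with filled symbols for genes that passed the test. The right panel leaves out KRT13 on a magnified scale, where KRT23, KRT5 and KRT14 lie below -1 and KRT10, KRT7 and KRT80 lie above 0.

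KRT23, a type I keratin known from pancreatic and colon cancer cells, had log2 values of 2.31, 2.32 and 2.38 on the PC9/gef arrays, against 4.24, 3.76 and 4.30 on the PC9 arrays. All PC9/gef arrays were at background level and all PC9 arrays were above it. The fitted log2 change was -1.76 (SE 0.17, adjusted p = 0.00247). Since PC9/gef gave no readable level, the fold is a bound, at least 2.81-fold lower in PC9/gef. KRT80, a type II keratin found in many epithelia, had log2 values of 10.00, 9.97 and 10.01 on the PC9/gef arrays, against 9.64, 9.69 and 9.59 on the PC9 arrays. It was higher on every PC9/gef array, by 1.28-fold (log2 change 0.36, SE 0.030, adjusted p = 0.00171), the largest rise among the keratin genes called.

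Of 18 keratins of hair and its follicle, 1 was above background level. This was KRT40, a type I hair keratin, with log2 values of 2.68, 2.69 and 2.69 on the PC9/gef arrays, against 2.70, 2.70 and 2.70 on the PC9 arrays. These lie just over the background level of 2.61, and the difference did not pass (log2 change -0.014, adjusted p = 0.0947). At background level in both lines were the hair keratins KRT25, KRT27, KRT31, KRT32, KRT35, KRT36, KRT37, KRT38, KRT71, KRT72, KRT73, KRT74, KRT75, KRT79, KRT83, KRT84 and KRT85, the stratified-epithelial KRT1, KRT2, KRT3, KRT4, KRT9, KRT12, KRT24, KRT76 and KRT77, and KRT20 and KRT222. Their array values ran from 2.06 to 2.68, and the largest difference between the lines was 0.061 on the log2 scale, for KRT25. No level can be read for these 28 genes, and low expression of any of them would not be detectable here. Keratin genes without a probe set annotated to them alone, such as KRT17, KRT81 and KRT86, were not analysed here and are not in the counts. This follows from the annotation used and does not mean that the array lacks them.

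By type, 9 of 22 type I genes were above background level, of which KRT10 was higher, 6 were lower and 2 did not pass, with a median log2 change of -0.18. Of 20 type II genes, 5 were above background level, of which KRT7 and KRT80 were higher, KRT5 and KRT8 were lower and KRT78 did not pass, with a median log2 change of -0.33. Among all genes above background level, 22.8% were higher and 21.4% lower. At the level of probe sets, 17 of the 54 were above background level, of which 5 were higher and 8 lower, beside 15.9% higher and 16% lower (31.9% in either direction) among all probe sets above background level. Probe sets named _x_at or _s_at may also bind transcripts of related genes. Of the 14 genes above background level, 6 were read from such probe sets, KRT13, KRT23, KRT8, KRT18, KRT7 and KRT10. How much of their signal came from related keratin genes was not tested.

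In the order of genes on the chromosome, KRT13, KRT15, KRT19, KRT9, KRT14 and KRT16 follow each other in the type I cluster. Their log2 changes were -10.43 for KRT13, -0.18 for KRT15, 0.031 for KRT19, -1.20 for KRT14 and -0.54 for KRT16, with KRT9 at background level. The gene with the largest fall thus stood next to genes with small differences, and KRT36, on its other side, was at background level. In the type II cluster, KRT80 and KRT7 are neighbours at one end and both were higher, and KRT8 and KRT18, neighbours at the other end, were both lower. KRT18 is the type I gene that lies beside the type II genes. Of the 20 protein-coding genes on each side of the type I cluster, 25 were above background level, of which 6 were higher, 4 were lower and 15 did not pass. Their log2 changes ran from -0.55 for KAT2A to 0.59 for FKBP10, with a median of 0.0029. Around the type II cluster, 27 flanking genes were above background level, of which 6 were higher, 6 were lower and 15 did not pass. Their log2 changes ran from -0.66 for IGFBP6 to 1.002 for ACVR1B, with a median of -0.023. On both flanks the counts were near the shares of all genes above background level, 22.8% higher and 21.4% lower.

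**Figure D3:**
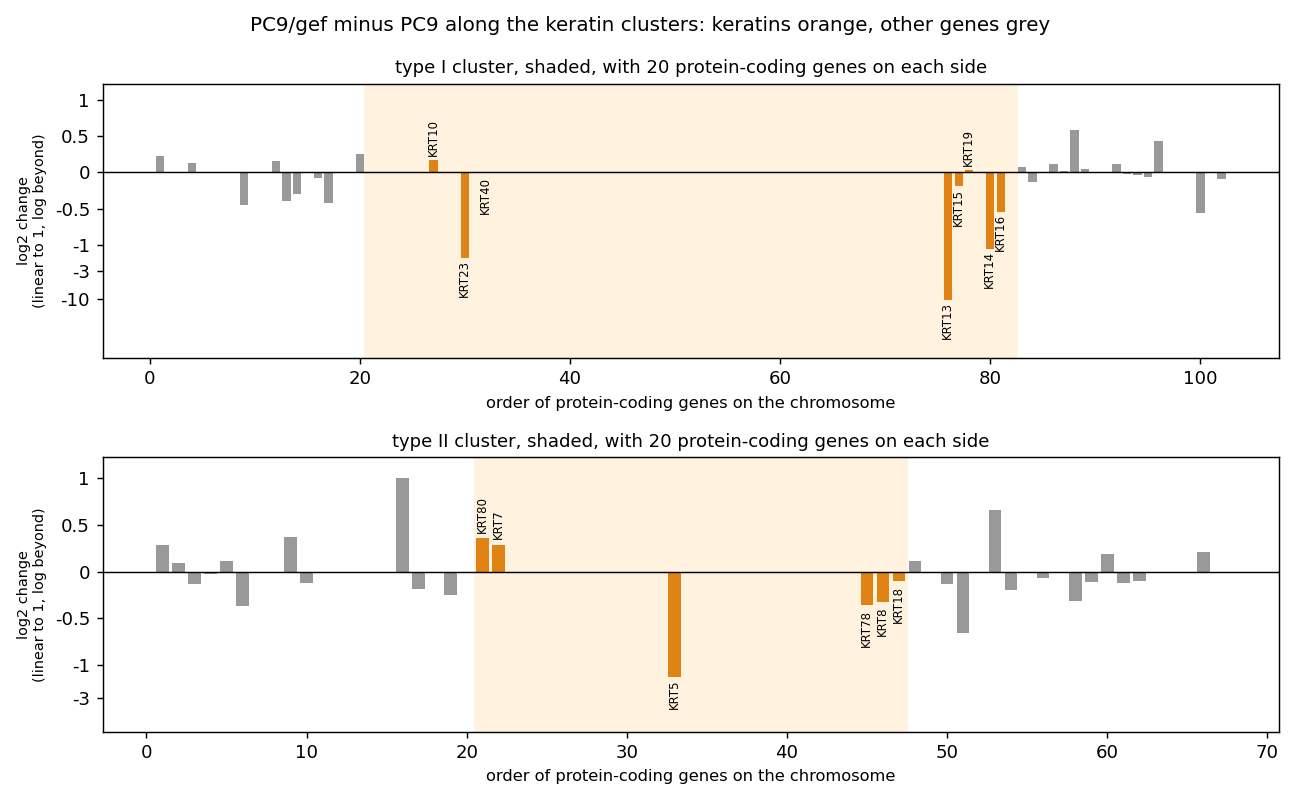
Log2 change in PC9/gef minus PC9 (y axis, linear to 1 and logarithmic beyond) of genes above background level in their order along the chromosome (x axis), for the type I cluster (top) and the type II cluster (bottom), each shaded, with 20 protein-coding genes on each side. Keratin genes are orange and other genes grey, and KRT13 at -10.43 stands beside KRT15 at -0.18.

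Other genes of the filament system were read from lists written for this comparison. Of 16 other intermediate filament genes, 12 were above background level, of which 3 were higher (25%), 5 were lower (41.7%) and 4 did not pass, with a median log2 change of -0.098. The shares over all genes above background level were 22.8% higher and 21.4% lower, so that the share of higher genes was near that of all genes. VIM, which encodes vimentin, the filament protein of mesenchymal cells, had log2 values of 11.29, 11.36 and 11.34 on the PC9/gef arrays, against 10.50, 10.39 and 10.38 on the PC9 arrays. It was higher on every PC9/gef array, by 1.87-fold (log2 change 0.91, adjusted p = 0.000353). INA, a neuronal filament gene, averaged 5.95 in PC9/gef and 7.63 in PC9 and was 3.21-fold lower (adjusted p = 0.00169). LMNB1, which encodes lamin B1 of the nuclear lamina, was 1.43-fold lower (adjusted p = 0.00933), and NES, which encodes nestin, was 1.40-fold higher (adjusted p = 0.0247). By RT-qPCR, however, the paper saw no rise of nestin in PC9/gef. Of 5 listed keratins whose symbols end in a letter, 2 had a probe set annotated to them alone. These were the hair keratins KRT33A and KRT33B, at background level in both lines. KRT6A, KRT6B and KRT6C had none in the annotation used, so they were not read here. Whether the array carries probe sets for them was not examined.

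Of 16 genes for proteins that anchor or bundle keratin filaments, 15 were above background level, of which 3 were higher (20%), 3 were lower (20%) and 9 did not pass, with a median log2 change of -0.0083. These shares were near the 22.8% higher and 21.4% lower of all genes above background level. PKP1, a plakophilin of the desmosome, averaged 5.99 in PC9/gef and 5.03 in PC9 and was 1.94-fold higher (adjusted p = 0.00959). PPL, which encodes periplakin of the cornified envelope, was 1.61-fold lower (adjusted p = 0.000774). ITGA6 and ITGB4, the subunits of the hemidesmosome integrin, were 1.28-fold (adjusted p = 0.0427) and 1.24-fold lower (adjusted p = 0.00359). Of 20 transcription factors of epithelial cells, 16 were above background level, of which 3 were higher (18.8%), 9 were lower (56.2%) and 4 did not pass, beside the same 22.8% and 21.4% of all genes, with a median log2 change of -0.21. The list was chosen with earlier results of these data known, so its share of lower genes may reflect that choice, and it was not tested. ELF5, an ETS factor of glandular epithelium, averaged 8.39 in PC9/gef and 9.55 in PC9 and was 2.24-fold lower (adjusted p = 0.000886). OVOL2, a zinc finger repressor of mesenchymal genes, was 2.03-fold lower (adjusted p = 4.2e-05), FOXA1, a pioneer factor of endodermal epithelia, was 1.98-fold lower (adjusted p = 0.0096), and GRHL1, a grainyhead-like factor, was 1.54-fold lower (adjusted p = 0.000599).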

How the data were processed

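RNA of 3 PC9/gef and 3 PC9 samples was measured on 6 Affymetrix Human Genome arrays with 54675 probe sets. The deposited values are log2 expression values that the authors had background-corrected, normalized and summarized per probe set. For this, GC-RMA in GeneSpring GX is given in the supplementary methods and RMA in the submitters' processing notes, with versions not given in the sources used here. The sorted values are practically the same on every array, so the values were used as deposited. GC-RMA and RMA compress low signals, so small differences near background level cannot be read.

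Affymetrix controls (62) were dropped. The annotation named 1 gene for 41091 of the other probe sets, several genes for 1801 and no gene for 11721. A keratin probe set annotated to KRT34 with another gene was left out. PC9/gef minus PC9 was fitted with limma 3.58.1 under R 4.3.3 (empirical Bayes without trend or robust options). P-values were adjusted by the Benjamini-Hochberg method over genes and, in a second fit, over probe sets. In all, 5383 genes were called. A further 76 with an adjusted p under 0.05 were at background level in both lines and were not counted. Where a line was at background level, the fold was computed against that level and is a lower bound. Precision is limited by the number of arrays. With 3 against 3, the smallest two-sided p of an exact permutation test is 0.1. The fit was tested on simulated data. The recovery first required there was missed for the smallest changes made, and was then required only of the larger ones. Plots used matplotlib 3.10.9 (Python 3.11.15).

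The keratin genes, their classes and the lists were chosen with earlier results of these data known. Every keratin gene above background level is named with its values and the others as a group, and up to 4 genes of each further list are those with the largest change among those called. KAT2A, FKBP10, IGFBP6 and ACVR1B, the extremes of the flanking genes, and the marker genes fall outside this rule. Results were recomputed with median centring, quantile normalization, robust moderation with a trend, removal of dim probe sets and a block for the replicate number. Further settings were removal of 1 array at a time, the 99th percentile as background, Student's t-test and a minimum change of 1.5-fold. The last were the mean over a gene's probe sets and removal of _x_at and _s_at probe sets.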

Additional observations from a re-analysis of the deposited data

How the results depend on the processing

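Without each array in turn, 3 to 4 keratin genes were higher and 7 to 8 lower in PC9/gef, 4 to 5 keratin probe sets were higher and 7 to 8 lower, and 2184 to 2467 of all genes were higher and 2020 to 2636 lower. Keratin genes over 2-fold lower were 4 each time and over 2-fold higher 0. Against a minimum change of 1.5-fold, 0 keratin genes were higher and 3 lower (KRT13, KRT23 and KRT5), 0 keratin probe sets were higher and 2 lower, and 265 of all genes were higher and 269 lower, since this test asks for a larger change. Without probe sets named _x_at or _s_at, 1 keratin gene was higher and 4 lower, and 2 were over 2-fold lower. Of all genes, 1817 were then higher and 1747 lower. KRT13, KRT23, KRT8, KRT18 and KRT10 then had no value, and the log2 change of KRT7, read from a probe set at background level, was -0.00016. Same-numbered arrays of the lines did not deviate together (r = -0.0254, 0.0154 and 0.0471, beside -0.0655 to 0.0501 for differently numbered arrays). With 3 arrays a line, this cannot show whether same-numbered arrays shared a batch. With the replicate block, 3 keratin genes were higher and 7 lower, and 3 keratin probe sets were higher and 5 lower. KRT15 was the gene lost (adjusted p = 0.0967). Student's t-test called 11 keratin genes after Benjamini-Hochberg adjustment and 12 at an unadjusted p under 0.05, of 5217 and 6734 genes. The methods name that test for comparing means in general. For the arrays they define differentially expressed genes only by a change over 2-fold. The fall of KRT13 passed in every setting that gave it a value, with log2 changes from -10.65 to -10.16. The other settings varied left the keratin counts within 1.5 times. Among them, quantile normalization and median centring could change little, because the arrays already had the same distribution. Signal over background limits the rest, since 28 of 42 keratin genes gave no level.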
